A study of Mus musculus with 15 samples.

Results

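The 39 genes described here encode the basement membrane and the fibrillar matrix that vascular cells of the brain lay down: collagen IV chains, laminins, linker proteins and proteoglycans, interstitial collagens, matricellular proteins, crosslinking enzymes and elastic fibre proteins. They were taken by name from a list of mouse symbols matched through Entrez gene identifiers that was chosen with earlier results of these data known. All 39 had values, out of 17892 genes with values, and all 39 were among the 14853 genes that passed the filter on low counts. RNA was sequenced from PDGFRβ-positive brain cells of mice, in 15 libraries and 4 groups. The wild-type (WT) sham group had 3 libraries, and the WT group taken 24 h after neonatal hypoxia-ischemia (HI), a combined loss of oxygen and blood flow, had 4. The miR-210 knockout (KO) sham group had 4 libraries, and so did the KO group 24 h after HI. No time is given for sham, and no age beyond neonatal, no strain and no knockout allele are given in the sources used here. The labels do not say whether libraries of a group came from separate animals, so each p-value measures the spread between these libraries, which may be technical.

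The basement membrane is a thin protein sheet that encloses brain capillaries and is shared by endothelial cells and the pericytes embedded in it. Laminin trimers and a collagen IV network form its layers, nidogens and the proteoglycan perlecan hold them together, and lysyl oxidases crosslink collagen and elastin. Around larger vessels smooth muscle cells and fibroblasts add elastic fibres and interstitial collagens, and matricellular proteins such as tenascin C bind the matrix and modulate cell adhesion. miR-210 is a microRNA that hypoxia induces.

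Total expected counts ran from 15436376 to 18118697 per library. Mir210 had a line without values, so its loss in the KO libraries could not be checked from this table. Pdgfrb, the receptor used to isolate the cells, was detected in all 15 libraries, at 688 to 1049 CPM (counts scaled to the TMM-normalized library size) in the 7 WT libraries and at 194 to 785 CPM in the 8 KO libraries. Endothelial markers were abundant too: their 11 genes summed to 6707 to 8797 CPM in WT libraries and to 2120 to 7467 CPM in KO libraries. KO sham 1 and KO HI 3 stood apart, with summed neuron markers (10 genes) of 1166 and 730 CPM, against 24.8 to 223 CPM in the other 13 libraries. Results are therefore also given without the 5 libraries with the highest neuron markers (WT sham 2, KO sham 1, KO sham 3, KO HI 2 and KO HI 3). That setting keeps all WT HI libraries but only WT sham 1 and 3, KO sham 4 and 6, and KO HI 1 and 4, so its groups are small.

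The sequence of the deleted microRNA is shown first, because the knockout is the comparison on which most of the member differences rest. Both mature arms are from RefSeq (GRCm38.p6, minus strand, chr7:141221407-141221428 for the 3p arm and chr7:141221445-141221466 for the 5p arm), 5′ to 3′, with the seed, bases 2 to 8, in capitals.
mmu-miR-210-3p: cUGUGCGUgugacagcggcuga
mmu-miR-210-5p: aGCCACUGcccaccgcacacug
A direct match to the 3p seed reads ACGCACA in a 3′ UTR. Of the 39 members, 37 had an annotated 3′ UTR in the GRCm38 reference, and 0 of these 37 held the 7 letters, against 630 of 20890 genes with an annotated UTR (3.02%). This says only that these letters were not in the annotated window.

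Col4a1 and Col4a2, which encode the chains of the most common collagen IV trimer, are neighbours read in opposite directions. The starts used for their promoter windows are 21 bases apart, while their annotated gene spans overlap by 85 bases. The promoter windows, 250 bases before to 50 bases after the start used, overlap by 78 bases. The windows are shown because both genes kept a nearly constant ratio over the 15 libraries, and that of Tnc is shown because it was the member that HI raised in WT. Capitals mark, on either strand, the GC box with the letters GGGCGG, the box named for its letters CCAAT, and the TATA box with the letters TATAAA. Sequences are from RefSeq, GRCm38.p6: chr8:11312777-11313076, minus strand, for Col4a1, chr8:11312555-11312854, plus strand, for Col4a2 and chr4:64046966-64047265, minus strand, for the first of 2 listed Tnc windows.
Col4a1: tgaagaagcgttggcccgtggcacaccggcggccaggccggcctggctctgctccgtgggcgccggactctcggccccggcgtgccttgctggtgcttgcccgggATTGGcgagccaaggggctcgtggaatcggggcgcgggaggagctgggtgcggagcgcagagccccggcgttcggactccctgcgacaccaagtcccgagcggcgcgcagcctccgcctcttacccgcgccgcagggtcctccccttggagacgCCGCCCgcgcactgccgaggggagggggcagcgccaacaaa
Col4a2: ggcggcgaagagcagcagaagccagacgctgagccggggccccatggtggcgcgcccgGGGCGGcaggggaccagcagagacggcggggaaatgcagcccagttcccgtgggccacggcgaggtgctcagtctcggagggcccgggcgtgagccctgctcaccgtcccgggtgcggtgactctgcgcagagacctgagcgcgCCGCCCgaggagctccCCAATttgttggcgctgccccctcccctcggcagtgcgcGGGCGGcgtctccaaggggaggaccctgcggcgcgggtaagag
Tnc: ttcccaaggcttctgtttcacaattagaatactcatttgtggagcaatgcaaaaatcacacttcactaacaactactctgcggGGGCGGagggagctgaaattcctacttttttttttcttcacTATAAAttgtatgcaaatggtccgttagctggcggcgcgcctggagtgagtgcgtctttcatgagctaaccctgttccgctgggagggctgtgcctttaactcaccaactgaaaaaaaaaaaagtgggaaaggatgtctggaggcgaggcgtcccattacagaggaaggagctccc
The Col4a2 window held 3 GC boxes and a CCAAT box, the Col4a1 window 1 GC box and 1 CCAAT box, and the Tnc window 1 GC box and 1 TATA box. The Col4a1 GC box is the same site as the last Col4a2 GC box, read on the other strand within the 78 shared bases. A window was listed for 27 of the 39 members. A GC box lay in the windows of 21 of these 27 genes, where 35.7% of all 32851 windows held it. A CCAAT box was found for 8 genes (37.4% of all windows) and a TATA box for 2 genes (13.6%). The AP-1 letters TGACTCA were found for 1 gene (5.20%), and the HIF letters ACGTG for 3 genes (19.6%). Neither of these last motifs was in the 3 windows shown. A gene can have several windows, so its share is not on the same scale as the share of windows.

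Per kilobase of transcript, the highest member in WT sham was Sparc, a collagen-binding matricellular protein, at 2088 ± 127 CPM per kb (SD, n = 3). Eln, which encodes elastin, followed at 1019 ± 192, then Col4a1 at 964 ± 108, Fn1 (fibronectin) at 800 ± 55.8 and Col4a2 at 676 ± 73.9 CPM per kb. The Eln and Col4a1 levels differed by less than the SD of Eln. Below these 5 genes came a gap to Nid1 (nidogen 1) at 251 ± 34.9 and Agrn (agrin) at 241 ± 32.5 CPM per kb, which lay within their SD of each other. Lysyl oxidases were among the low members, from Loxl2 at 28.8 ± 2.62 to Loxl4 at 0.81 ± 0.24 CPM per kb, and Tnc stood at 6.12 ± 1.67, the second lowest of the 39. As a share of all counts, the 39 genes took 1.24% to 4.68% of a library.

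**Figure D1:**
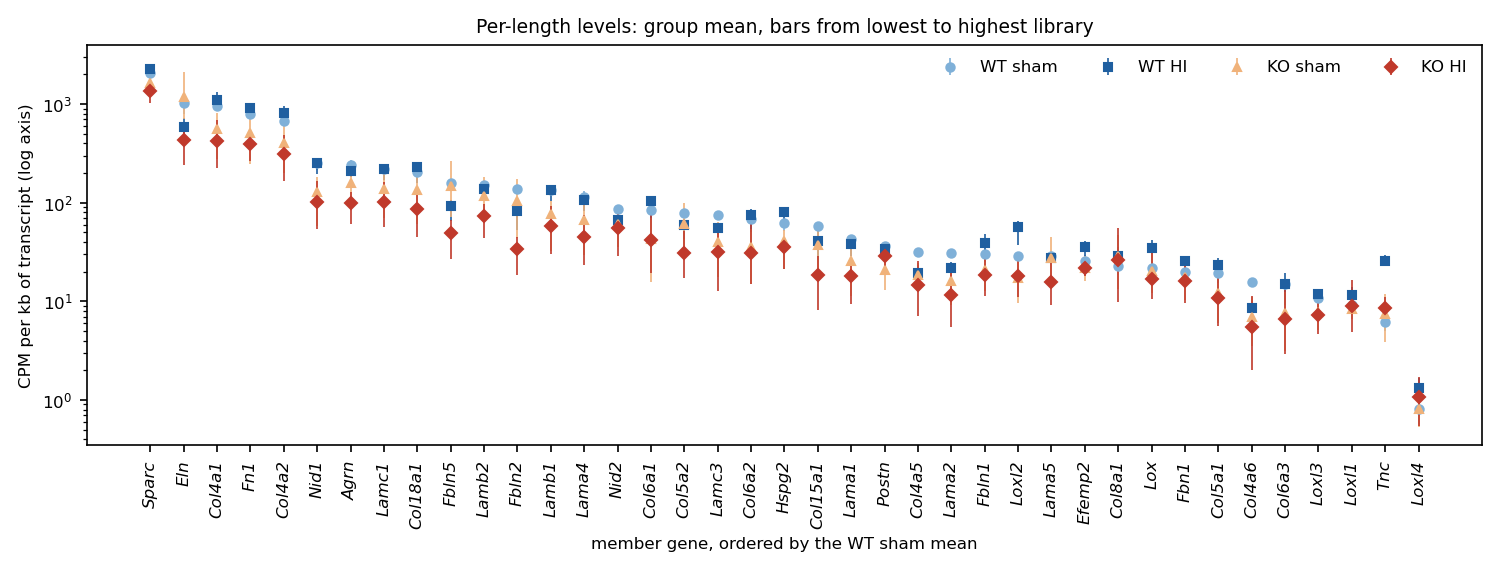
Per-length level (CPM per kb of transcript, log axis) of the 39 matrix genes, ordered by their WT sham mean; symbols are group means (n = 3 for WT sham, n = 4 for the others) and bars run from the lowest to the highest library. Sparc, Eln, Col4a1, Fn1 and Col4a2 lie above the rest, KO HI symbols lie below WT HI symbols for all 39 genes, and Tnc is the gene with the widest gap between WT HI and the other groups.

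After HI, 16 of the 39 matrix genes were lower in KO than in WT. The fitted log2 fold change was negative for 39 of 39 members, with a median of -1.05, where the median of all tested genes was 0.06 and 43.7% of them were negative. By edgeR's quasi-likelihood test with Benjamini-Hochberg adjustment over all 14853 genes, 16 of 39 members were lower at adjusted p under 0.05 and 0 were higher, against 6.46% of all genes called lower and 5.96% called higher. The 16 were Col4a1, Col4a2, Lama4, Lamb1, Lamc1, Nid1, Hspg2, Agrn, Col18a1, Fn1, Sparc, Tnc, Loxl2, Fbln1, Fbln2 and Efemp2. At an unadjusted p under 0.05, 29 members were lower (15.2% of all genes), and 17 members had all 4 KO HI libraries below all 4 WT HI libraries (11.5% of all genes). In RNA from a mixed isolate, fewer cells of a type and less RNA per cell cannot be told apart.

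The markers of the vascular cells were lower in the same comparison, where 6.46% of all genes were called lower and 5.96% higher. Of 11 pericyte markers, 4 were lower (Pdgfrb, Rgs5, Cspg4 and Notch3), with summed levels of 5949 to 8321 CPM in WT HI and 1705 to 5737 CPM in KO HI. Of 11 endothelial markers, 8 were lower, with sums of 6707 to 8797 CPM in WT HI and 2120 to 4473 CPM in KO HI. Of 8 smooth muscle markers, 2 were lower and all 8 were negative, with sums of 1437 to 2954 CPM in WT HI and 791 to 1530 CPM in KO HI. All 12 microglia markers were higher, with sums of 1902 to 5058 CPM in WT HI and 6466 to 13803 CPM in KO HI. Pdgfrb itself was lower, at -1.38 ± 0.35 on the log2 scale (SE, edgeR adjusted p = 0.0246). The part of these cell types in the matrix result was not tested. The number of members called depended on single libraries. It was 1 without WT HI 1, 2 without WT HI 4, 2 without WT HI 5, 4 without KO HI 1 and 5 without KO HI 3, and 28 without KO sham 1 and 29 without KO HI 4. Over these omissions 1.58% to 12.5% of all genes were called lower. Without the 5 libraries with the highest neuron markers it was 17, of which 13 were among the 16 (10.9% of all genes). DESeq2 called 28 members lower (11.5% of all genes) and limma-voom 22 (8.22%). Below, a gene that was called or not called is so by the edgeR test over the 4 groups unless another analysis is named.

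**Figure D2:**
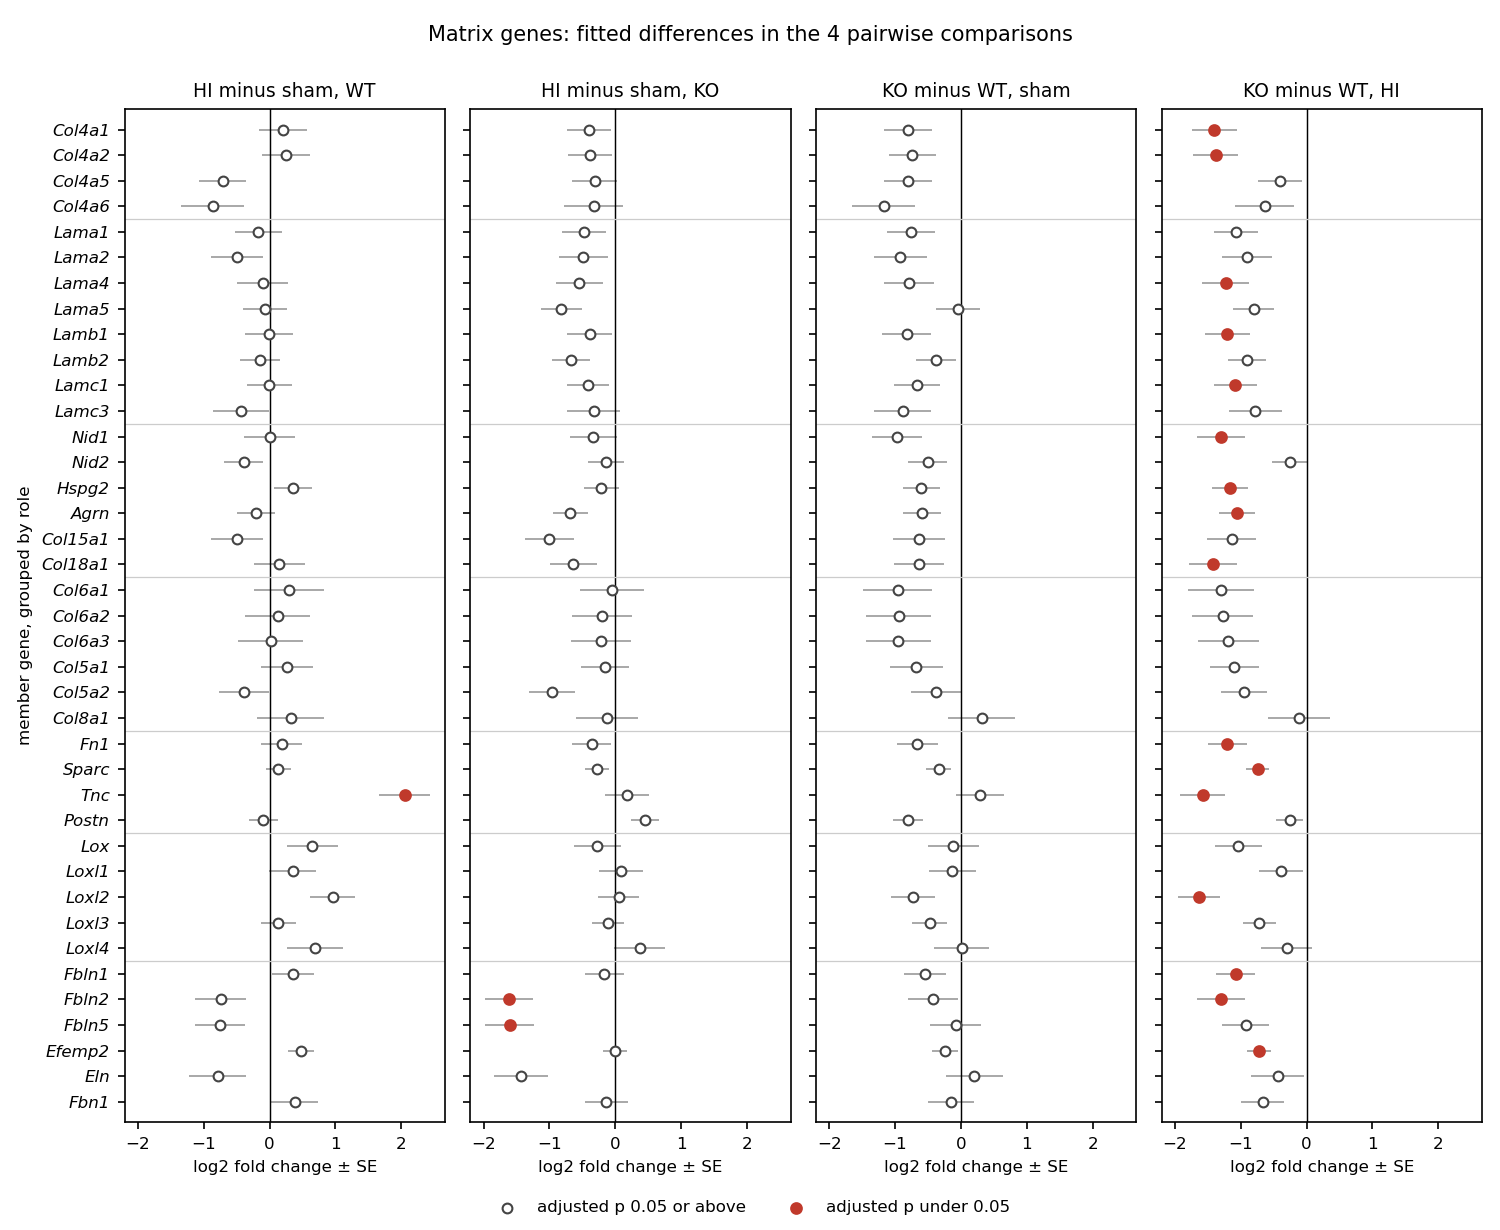
Fitted log2 fold change (point) and SE (bar) of the 39 members in 4 pairwise comparisons, in the order collagen IV, laminins, linkers and proteoglycans, interstitial collagens, matricellular and adhesive proteins, crosslinking enzymes and elastic fibre proteins, separated by lines; filled points have an edgeR adjusted p under 0.05. All 39 points lie below 0 for KO minus WT after HI, 16 of them filled, while 1, 2 and 0 points are filled in the other panels.

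In sham mice most members had lower fitted values in KO than in WT, and none passed the test. The log2 fold change was negative for 35 of 39 members (43.7% of all genes) and its median was -0.63, against 0.05 for all tested genes. The edgeR test called 0 of 39 members, where 0.0135% of all genes were called in either direction. At an unadjusted p under 0.05, 8 members were lower (3% of all genes), with 18 by DESeq2 (4.36% of all genes) and 16 by limma-voom (4.15%), both of which also called 0 members after adjustment. The median ran from -0.89 without KO sham 4 to -0.39 without KO sham 1. In 18 members all 4 KO sham libraries lay below all 3 WT sham libraries (5.49% of all genes). The smallest p-values belonged to Postn (-0.80 ± 0.22, edgeR adjusted p = 0.477), Nid1 (-0.97 ± 0.38) and Col4a6 (-1.17 ± 0.48). Pericyte markers summed to 8199 to 11350 CPM in WT sham and to 2945 to 8573 CPM in KO sham, and 0 of 11 passed the test. Neuron markers summed to 42.8 to 108 CPM in WT sham and to 44.6 to 1166 CPM in KO sham, and their part in these values was not tested.

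With all 4 groups fitted, few matrix genes were called for HI within a genotype. In WT, 1 of 39 members rose, Tnc, and 0 fell, against 1.38% of all genes called higher and 0.444% called lower. The median log2 fold change was 0.02, and -0.01 over all genes. In 3 members the WT HI libraries lay above all WT sham libraries (15.9% of all genes), and in 9 members below them (15.8%). With only the WT groups fitted, 11 members were called, 3 higher (9.11% of all genes) and 8 lower (8.03%). In KO, 0 members rose and 2 fell, Fbln2 and Fbln5, where 2.13% of all genes fell and 4.88% rose. The median was -0.33, against -0.06 over all genes, and 34 of 39 members were negative (57.1% of all genes). That median ran from -0.74 without KO HI 4 to -0.12 without KO sham 4. DESeq2 called 4 members lower (4.69% of all genes) and limma-voom 3 (1.97%). The KO HI libraries lay below all KO sham libraries in 2 members, Fbln5 and Eln (2.78% of all genes).

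The difference between the HI responses, KO minus WT, was called for 0 of 39 members by edgeR, where 0% of all genes were called, and for 0 by DESeq2 and by limma-voom. At an unadjusted p under 0.05 there was 1 member by edgeR, Tnc (3.07% of all genes were lower at that level). A different response of KO and WT was thus not shown for any member. The 5 comparisons share groups, so their values are not independent.

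Among the collagen IV chains, Col4a1 and Col4a2 fell together in KO HI relative to WT HI and the chains Col4a5 and Col4a6 did not pass the test. Col4a1 was at 7139, 5727 and 6270 CPM in WT sham 1 to 3, and at 8681, 5666, 7833 and 7249 CPM in WT HI 1, 2, 4 and 5. It was at 1857, 3794, 5372 and 3659 CPM in KO sham 1, 3, 4 and 6, and at 2919, 2192, 1499 and 4551 CPM in KO HI 1 to 4. Every KO library was below every WT library, and KO groups had the wider spread. After HI the KO to WT ratio of Col4a1 was 0.379, or -1.40 ± 0.35 on the log2 scale (edgeR adjusted p = 0.0217). Libraries of all members below are listed in the same order.

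Col4a2 was at 4869, 3924 and 4285 CPM in WT sham, at 6235, 4124, 5415 and 4997 in WT HI, at 1280, 2613, 3835 and 2715 in KO sham and at 2156, 1655, 1067 and 3105 in KO HI. It too separated all KO from all WT libraries, and its log2 fold change in KO HI against WT HI was -1.38 ± 0.34 (edgeR adjusted p = 0.0211). The log2 ratio of Col4a1 to Col4a2 within a library ran only from 0.41 to 0.55 over the 15 libraries. Their annotated spans overlap by 85 bases, and whether reads were counted by strand is not given in the sources used here, so reads from that stretch cannot be assigned.

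Col4a6, a chain of the less common collagen IV networks, had 103, 113 and 96.1 CPM in WT sham and 51.0, 39.2, 69.3 and 69.3 CPM in WT HI. It had 23.4, 50.2, 72.8 and 37.8 CPM in KO sham and 33.2, 24.3, 13.3 and 76.2 CPM in KO HI. WT sham lay above all other groups, and the other 3 groups overlapped. The log2 difference of WT HI from WT sham was -0.86 ± 0.48 for Col4a6 and -0.71 ± 0.36 for Col4a5, and that of KO HI from WT HI was -0.64 ± 0.45 and -0.41 ± 0.34. None of these passed the test with all 4 groups fitted, while both chains were called in WT HI against WT sham with only the WT groups fitted (edgeR adjusted p = 0.0227 for Col4a6 and 0.0222 for Col4a5).

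Of the 8 laminin chains, 3 fell in KO HI against WT HI (6.46% of all genes). They were Lama4, the alpha chain typical of endothelial basement membranes, and Lamb1 and Lamc1, beta and gamma chains that pair with it. Lama4 was at 800, 600 and 675 CPM in WT sham and at 735, 498, 690 and 647 CPM in WT HI. It was at 180, 369, 569 and 480 CPM in KO sham and at 301, 204, 142 and 449 CPM in KO HI. KO was below WT without overlap within sham and within HI, and the log2 fold change after HI was -1.23 ± 0.36 (edgeR adjusted p = 0.0418).

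Lamb1 had 863, 675 and 804 CPM in WT sham, 861, 607, 851 and 789 in WT HI, 189, 426, 605 and 542 in KO sham and 349, 294, 177 and 531 in KO HI. WT sham and WT HI were alike, with a log2 difference of -0.01 ± 0.37, while KO HI was lower than WT HI, at -1.20 ± 0.35 on the log2 scale (edgeR adjusted p = 0.0394). Lamc1 had 1834, 1472 and 1663 CPM in WT sham, 1853, 1286, 1779 and 1704 in WT HI, 538, 1023, 1582 and 1030 in KO sham and 809, 654, 434 and 1233 in KO HI. After HI its groups did not overlap, at -1.08 ± 0.32 (edgeR adjusted p = 0.0452). These 3 laminin calls were near the threshold. They were lost in 11 (Lama4), 11 (Lamb1) and 14 (Lamc1) of 22 alternative analyses.

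The other 5 laminins were Lama1, Lama2, Lama5, Lamb2 and Lamc3. Their log2 fold changes in KO HI against WT HI ran from -0.78 ± 0.40 (Lamc3) to -1.07 ± 0.34 (Lama1). In that comparison 6 of the 8 laminins had KO HI libraries below all WT HI libraries (11.5% of all genes). DESeq2 called Lama1, Lamb2 and Lama5 too, and limma-voom called Lama1 and Lamb2. Lama5, an alpha chain of mature vascular basement membranes, was the laminin with the smallest difference between genotypes in sham, at -0.04 ± 0.33, where the other 7 ran from -0.37 to -0.92. Within KO, HI libraries differed from sham by -0.82 ± 0.31 for Lama5, the most negative value of the 8 chains, which did not pass the test over all 15 libraries and passed it without the 5 libraries with the highest neuron markers (-1.19, edgeR adjusted p = 0.0258). All 8 were also negative in WT HI against WT sham, with Lama2 the lowest at -0.49, and 0 were called with all 4 groups fitted (Lama2 and Lamc3 with only the WT groups fitted).

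Of the 6 linkers and proteoglycans, 4 fell in KO HI against WT HI (6.46% of all genes): Nid1, Hspg2 (perlecan), Agrn and Col18a1, the source of endostatin. Nid1, which bridges laminin and collagen IV, was at 1743, 1318 and 1517 CPM in WT sham, 1691, 1198, 1650 and 1568 in WT HI, 354, 712, 1104 and 947 in KO sham and 686, 435, 330 and 1022 in KO HI. All KO libraries were below all WT libraries. The log2 fold change was -1.30 ± 0.36 after HI (edgeR adjusted p = 0.0341).

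Hspg2 had 954, 735 and 972 CPM in WT sham, 1235, 963, 1198 and 1150 in WT HI, 303, 612, 747 and 681 in KO sham and 482, 642, 305 and 598 in KO HI, and was lower in KO HI than in WT HI at -1.17 ± 0.27 (edgeR adjusted p = 0.0173). Agrn, a heparan sulfate proteoglycan, had 1971, 1501 and 1769 CPM in WT sham, 1679, 1315, 1545 and 1496 in WT HI, 614, 1040, 1550 and 1448 in KO sham and 784, 740, 443 and 940 in KO HI. Its lowest WT HI library was above its highest KO HI library, at -1.05 ± 0.27 (edgeR adjusted p = 0.0258), and in sham the groups overlapped. Col18a1 had 1249, 1097 and 1124 CPM in WT sham, 1464, 891, 1413 and 1362 in WT HI, 343, 718, 1118 and 809 in KO sham and 451, 411, 251 and 805 in KO HI, with -1.42 ± 0.36 after HI (edgeR adjusted p = 0.0245). The 2 linkers not called by edgeR were Col15a1 at -1.14 ± 0.37, which DESeq2 called (adjusted p = 0.0132), and Nid2 at -0.25 ± 0.27.

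The paired nidogens were compared within libraries. The log2 ratio of Nid1 to Nid2 was 2.02, 1.75 and 1.75 in WT sham, 2.46, 2.09, 2.28 and 2.12 in WT HI, 1.02, 0.90, 1.79 and 1.57 in KO sham and 1.47, 0.11, 1.22 and 1.79 in KO HI. WT HI lay above WT sham by 0.39 and KO HI lay below WT HI by 1.09, in both cases without overlap. An exact two-sided permutation test gave p = 0.0286 for each, the smallest these group sizes allow, and an adjusted p of 0.286 over the 20 tests of 5 ratios. The ratios Lamb1 to Lamb2, Lama4 to Lama5, Col4a1 to Col4a2 and Fbln5 to Eln also gave no adjusted p under 0.05. Choroid plexus markers (7 genes, Ttr the most abundant) were highest in the libraries with the lowest ratios: Ttr was at 51141 CPM in KO HI 2 and at 25561 CPM in KO sham 3. Their sums were 1163 to 11435 CPM in WT sham, 43.9 to 8407 in WT HI, 140 to 26689 in KO sham and 1324 to 52936 in KO HI, and their part in the ratio was not tested. Nid2 overlaps the gene Rtraf by 386 bases, so part of its count may belong to that gene.

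Of the 6 interstitial collagens, 0 were called by edgeR over all 15 libraries in any comparison. Log2 fold changes in KO HI against WT HI were -1.30 ± 0.50 for Col6a1, -1.27 ± 0.46 for Col6a2 and -1.19 ± 0.46 for Col6a3, the chains of microfibrillar collagen VI. Col5a1 and Col5a2, chains of the fibril-nucleating collagen V, were at -1.10 ± 0.37 and -0.95 ± 0.35. Col8a1, a network collagen of vessel walls, was at -0.12 ± 0.47. In this comparison DESeq2 called 5 of the 6 lower (11.5% of all genes), all but Col8a1, with adjusted p from 0.0163 (Col5a1) to 0.0364 (Col6a3). The limma-voom fit called Col6a2 (adjusted p = 0.0459) and Col5a1 (adjusted p = 0.0472), where 8.22% of all genes were lower. DESeq2 also called Col5a2 in KO HI against KO sham (adjusted p = 0.0443). At an unadjusted edgeR p under 0.05 there were 5 of 6 in KO HI against WT HI (15.2% of all genes were lower), and none of the 6 had groups without overlap. The collagen VI genes had larger SEs than most other members. Fibroblast markers (9 genes, of which 8 were tested) were called 0 times in this comparison, with sums of 693 to 1511 CPM in WT HI and 282 to 1191 CPM in KO HI. All 8 tested had negative log2 values there, with a median of -1.11. At an unadjusted edgeR p under 0.05, 3 of the 8 were lower (15.2% of all genes).

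**Figure D3:**
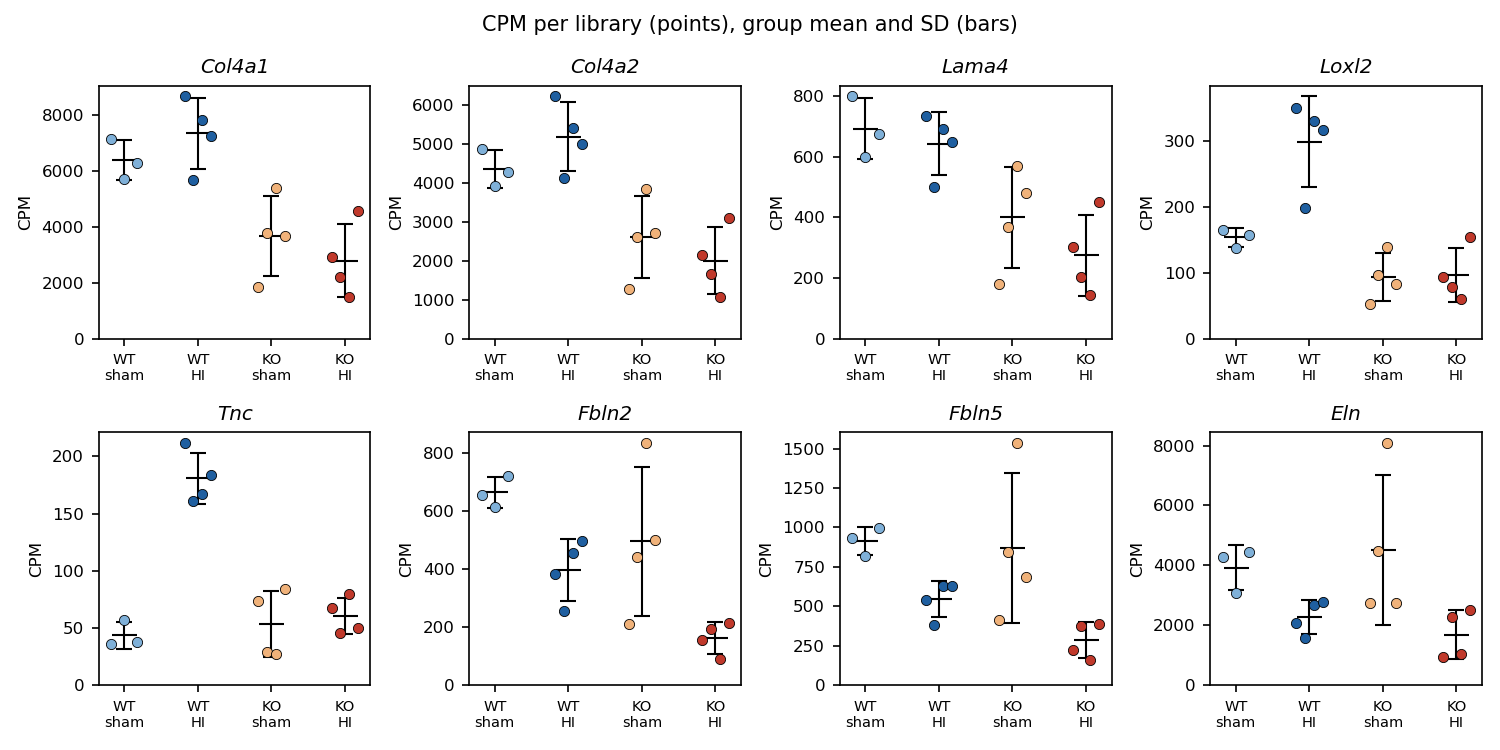
CPM of 8 members in each library (points), with group mean and SD (bars; n = 3 for WT sham and n = 4 for the other groups), each panel on its own linear axis from 0. Col4a1 and Col4a2 are lower in every KO than in every WT library, Lama4 and Loxl2 are lower in every KO HI than in every WT HI library, Tnc is high in the 4 WT HI libraries alone (161 to 212 CPM), and Fbln2, Fbln5 and Eln have their highest library in KO sham 4.

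Tnc, tenascin C, was the member with the largest change. It was at 35.8, 57.2 and 37.5 CPM in WT sham, and at 212, 161, 168 and 183 CPM in WT HI. In KO it was at 73.1, 29.3, 27.4 and 83.7 CPM in sham and at 67.6, 45.7, 79.3 and 49.7 CPM after HI. All 4 WT HI libraries lay above the other 11, which overlapped with each other. In WT it rose 4.16-fold with HI, or 2.06 ± 0.39 on the log2 scale (edgeR adjusted p = 0.0173). In KO the log2 difference of HI from sham was 0.18 ± 0.34, which did not pass the test. KO HI was lower than WT HI, at -1.58 ± 0.34 on the log2 scale (edgeR adjusted p = 0.0135).

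The difference of the 2 Tnc responses was -1.87 ± 0.50 on the log2 scale, with an unadjusted p of 0.00248 and an edgeR adjusted p of 0.834, ranging from 0.0821 to 1 over 21 alternatives. The rise of Tnc in WT was not called without WT sham 1, WT sham 2, WT sham 3 or WT HI 1, and its adjusted p ran from 6.16e-06 to 0.12 over 22 alternatives while its log2 value stayed between 1.93 and 2.30. Astrocyte markers belong to a cell type known to make tenascin C. They summed to 566 to 1686 CPM in WT sham and to 815 to 1110 CPM in WT HI, and 0 of 8 were called there. They summed to 455 to 13841 CPM in KO sham and to 727 to 5927 CPM in KO HI. In WT HI against WT sham, 3 of the 8 had positive and 5 had negative log2 values. Of the positive markers, Gfap was at 32.9, 127 and 41.8 CPM in WT sham and at 241, 212, 211 and 174 CPM in WT HI. Of the negative markers, Slc1a2 was at 110, 634 and 165 CPM in WT sham and at 97.6, 112, 65.1 and 58.9 CPM in WT HI. In KO, Gfap ran from 25.5 to 987 CPM in sham and from 99.6 to 1807 CPM after HI. The part of astrocytes in the Tnc values was not tested.

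Fn1, the adhesive glycoprotein fibronectin, had 7134, 6209 and 6610 CPM in WT sham, 8576, 6659, 7687 and 7276 in WT HI, 2065, 3839, 6146 and 4728 in KO sham and 3960, 2662, 2182 and 4292 in KO HI. It was lower in KO HI than in WT HI at -1.21 ± 0.30 (edgeR adjusted p = 0.0212), and all KO libraries were below all WT libraries. Sparc had 4976, 4465 and 4969 CPM in WT sham, 5908, 4334, 5358 and 5470 in WT HI, 2832, 3817, 4652 and 3924 in KO sham and 3501, 3364, 2381 and 3326 in KO HI. Its fall in KO HI was smaller, at -0.75 ± 0.18 (edgeR adjusted p = 0.0189), with an SE among the lowest of the 39. Postn, periostin, had 126, 99.8 and 124 CPM in WT sham, 114, 106, 108 and 110 in WT HI, 41.6, 82.7, 80.2 and 62.9 in KO sham and 82.7, 87.9, 69.1 and 126 in KO HI. Postn separated the genotypes in sham but not after HI, where the difference was -0.26 ± 0.21, and it passed no adjusted test.

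Among the 5 crosslinking enzymes, Loxl2, a lysyl oxidase that acts on collagen IV, had the lowest KO to WT ratio of all 39 members after HI. It was at 165, 138 and 157 CPM in WT sham, at 349, 197, 330 and 316 in WT HI, at 51.7, 96.6, 139 and 82.9 in KO sham and at 93.3, 78.6, 59.2 and 153 in KO HI. WT HI was above every other group. KO HI was at 0.322 of the WT HI level, or -1.63 ± 0.32 on the log2 scale (edgeR adjusted p = 0.00938), and the call was kept in 21 of 22 alternatives. The response to HI was 0.96 ± 0.34 in WT (edgeR adjusted p = 0.22, from 0.0157 to 0.562 over the alternatives) and 0.05 ± 0.31 in KO. The difference of these responses was -0.91 ± 0.46 (edgeR adjusted p = 0.932).

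All 5 crosslinkers had positive log2 values in WT HI against WT sham, with 0 of them called with all 4 groups fitted and Lox and Loxl2 called with only the WT groups fitted: Lox was at 0.65 ± 0.39, Loxl1 at 0.35 ± 0.36, Loxl3 at 0.13 ± 0.27 and Loxl4 at 0.69 ± 0.43. In KO HI against WT HI, Lox was at -1.04 ± 0.36 and Loxl3 at -0.72 ± 0.25, and neither passed edgeR's adjusted test. DESeq2 called both (adjusted p = 0.0191 and 0.0233), as did limma-voom (adjusted p = 0.0434 and 0.0455). Loxl3 overlaps Htra2 by 1301 bases, and Loxl4 had at most 6.39 CPM, so both values are less certain than those of Loxl2.

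In KO, HI lowered 2 of the 6 elastic fibre genes (2.13% of all genes). Fbln5, fibulin 5, which organises elastin on microfibrils, was at 930, 821 and 998 CPM in WT sham and at 539, 383, 626 and 627 CPM in WT HI. It was at 415, 844, 1534 and 687 CPM in KO sham and at 225, 374, 158 and 387 CPM in KO HI. HI libraries were below sham libraries in both genotypes without overlap. In KO it fell by 1.60 ± 0.37 on the log2 scale (edgeR adjusted p = 0.0224), and in WT the log2 difference was -0.75 ± 0.39, which did not pass the test with all 4 groups fitted and passed it with only the WT groups fitted (edgeR adjusted p = 0.024). The difference of these responses was -0.85 ± 0.53 (edgeR adjusted p = 0.942), so the fall was not shown to be larger in KO.

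Fbln2, fibulin 2, had 657, 616 and 722 CPM in WT sham, 382, 256, 456 and 498 in WT HI, 212, 440, 835 and 500 in KO sham and 155, 192, 88.9 and 213 in KO HI. It fell by 1.61 ± 0.37 with HI in KO (edgeR adjusted p = 0.0214), where KO sham 1 overlapped the HI libraries, and it was also lower in KO HI than in WT HI at -1.29 ± 0.36 (edgeR adjusted p = 0.0357). Eln had 4272, 3074 and 4429 CPM in WT sham, 2087, 1566, 2661 and 2774 in WT HI, 2738, 4478, 8077 and 2753 in KO sham and 921, 2261, 1020 and 2512 in KO HI. Its KO HI libraries were below all KO sham libraries, at -1.43 ± 0.41, and its edgeR adjusted p of 0.0528 missed the threshold. Eln was called in 7 of 22 alternatives. Between genotypes Eln differed little, with -0.44 ± 0.40 after HI and 0.20 ± 0.43 in sham. In WT, the HI libraries of Fbln2 and Eln also lay below all sham libraries. Neither gene was called in WT with all 4 groups fitted, and both were called with only the WT groups fitted. Fbln2 was at -0.74 in that fit (edgeR adjusted p = 0.0448) and Eln at -0.79 (edgeR adjusted p = 0.0476). A difference of the HI responses between KO and WT was called for neither.

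Smooth muscle markers also had lower values in KO HI than in KO sham. Of 8 such markers, Acta2, Myl9 and Myocd were called lower (2.13% of all genes), and all 8 were negative. Sums of the 8 were 1642 to 4490 CPM in KO sham and 791 to 1530 CPM in KO HI. The part of smooth muscle in the fall of Fbln2 and Fbln5 was not tested. The KO sham 4 library had the highest values of Eln, Fbln2, Fbln5 and of the smooth muscle sum. Without KO sham 4 or without KO HI 1 the number of members called in this comparison was 0, and without KO HI 3 it was 1. It was 4 without KO HI 2, 4 without KO HI 4 and 7 without KO sham 1. Without the 5 libraries with the highest neuron markers it was 4, with Lama5 and Agrn beside Fbln2 and Fbln5 (7.88% of all genes were called lower), and with only the KO groups fitted it was 0.

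Fbln1 and Efemp2 fell in KO HI against WT HI. Fbln1, fibulin 1, had 106, 111 and 118 CPM in WT sham, 142, 91.1, 164 and 176 in WT HI, 46.9, 74.7, 82.7 and 101 in KO sham and 50.2, 80.4, 41.1 and 101 in KO HI, and was lower in KO HI than in WT HI at -1.07 ± 0.30 (edgeR adjusted p = 0.0338). Efemp2, fibulin 4, which helps lysyl oxidase reach elastin, had 64.3, 62.8 and 77.1 CPM in WT sham, 99.2, 69.8, 102 and 108 in WT HI, 41.9, 54.9, 75.2 and 58.8 in KO sham and 57.2, 54.3, 47.4 and 71.0 in KO HI, with -0.72 ± 0.18 in the same comparison (edgeR adjusted p = 0.0252). Both overlapped between these groups through 1 library on a side. Fbn1, fibrillin 1, was at -0.67 ± 0.33 in KO HI against WT HI and was not called by edgeR over all 15 libraries in any comparison. Without the 5 libraries with the highest neuron markers it was called there, at -0.94 (edgeR adjusted p = 0.0342).

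Genes that act with the members were read from 3 lists. Of 21 collagen synthesis enzymes, 5 were lower (6.46% of all genes) and 1 was higher (5.96%) in KO HI against WT HI. Bmp1, which cleaves procollagen, was lower at -1.25 ± 0.18 (edgeR adjusted p = 0.00525), and P4ha1, a prolyl hydroxylase subunit that hypoxia induces, was higher at 0.73 ± 0.14 (edgeR adjusted p = 0.00957). P4ha1 also rose with HI in KO, at 0.75 ± 0.14 (edgeR adjusted p = 0.0108). Of 22 matrix receptors, 3 were lower in KO HI against WT HI (6.46% of all genes), Itga5, Itga1 and Ddr2. In that comparison 1 receptor was higher (5.96% of all genes), Itgb5 at 0.82 ± 0.17 (edgeR adjusted p = 0.0127). The fibronectin receptor chain Itga5 was lower at -1.08 ± 0.26 (edgeR adjusted p = 0.0194).

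Of 36 other matrix proteins, 12 were lower in KO HI against WT HI (6.46% of all genes) and 0 were higher (5.96%). In WT, HI raised 3 of the 36 (1.38% of all genes). Col5a3, a collagen V chain, went from 14.4 to 21.4 CPM in WT sham to 68.0 to 105 CPM in WT HI, or 2.35 ± 0.42 on the log2 scale (edgeR adjusted p = 0.0123). Ltbp2, a microfibril protein, rose 4.29-fold (edgeR adjusted p = 0.0187) from 2.97 to 3.26 CPM to 8.50 to 23.9 CPM. Thbs1, thrombospondin 1, rose by 1.97 ± 0.29 in WT (edgeR adjusted p = 0.00458) and by 1.52 ± 0.25 in KO (edgeR adjusted p = 0.00584). Col5a3 and Ltbp2 were lower in KO HI than in WT HI, at -1.86 ± 0.37 and -1.84 ± 0.36. In KO, HI lowered 4 of the 36 (2.13% of all genes), among them Ltbp1 at -1.45 ± 0.26 (edgeR adjusted p = 0.00889).

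The summed level of the 39 members was set beside that of the vascular markers in each library. The sum was 37937 to 45271 CPM in WT sham, 34141 to 47827 in WT HI, 16183 to 43556 in KO sham and 12223 to 28601 in KO HI. KO HI 3 and KO sham 1 had the lowest sums, and all 4 KO HI libraries were below every WT library. Divided by the summed pericyte and endothelial markers of the same library, it was 2.29 to 2.47 in WT sham, 2.70 to 2.89 in WT HI, 2.38 to 2.95 in KO sham and 2.71 to 3.20 in KO HI. On this scale the KO HI and WT HI libraries overlapped, and all WT HI libraries lay above all WT sham libraries. The member sums of WT sham and WT HI themselves overlapped. Rgs5, the most abundant pericyte marker in the divisor, was at 4495 to 6122 CPM in WT sham and at 2610 to 3689 CPM in WT HI. Its part in the ratio was not tested. The ratio is a description over member sums dominated by Col4a1, Col4a2, Fn1, Sparc and Eln, and no test was made on it.

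**Figure D4:**
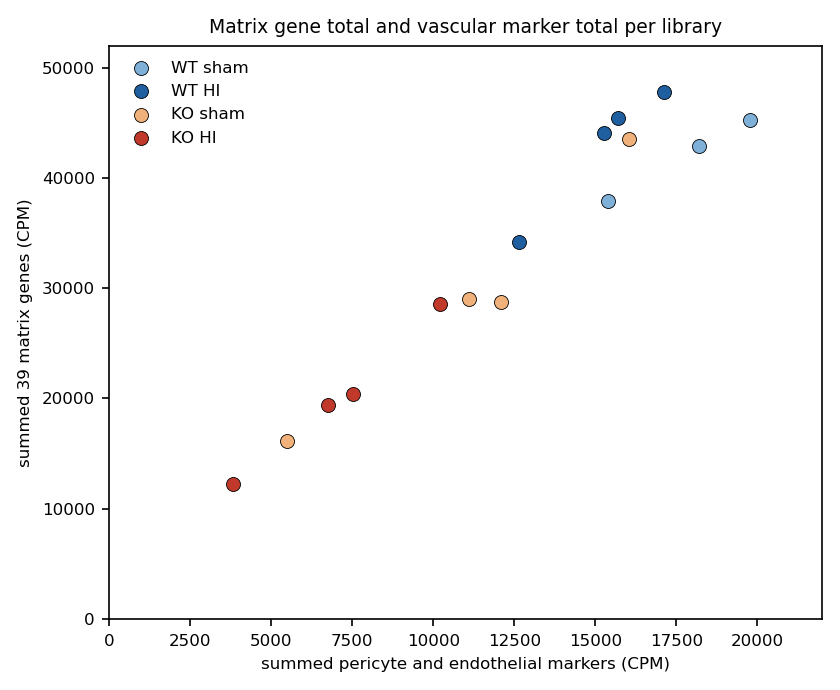
Summed CPM of the 39 matrix genes (vertical axis, CPM) against the summed CPM of 11 pericyte and 11 endothelial markers (horizontal axis, CPM), with 1 point per library. KO HI libraries lie at the lower left, at 12223 to 28601 CPM of matrix genes, and the ratio of the axes runs from 2.29 to 3.20 over all libraries.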

How the data were processed

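Values are expected counts per gene as the authors deposited them, 1 column for each of 15 libraries, not normalized. The header gives no unit, which was read from the values and from RSEM in the tool list. The submitters' processing notes list HISAT2 2.1.0, Bowtie2 2.4.4, Bowtie, RSEM 1.3.1, DESeq2 1.4.5 and mm39. Of 65535 lines, 17892 had values (17862 matched to a symbol) and 47643 were blank. Counts were rounded, filtered with filterByExpr (14853 genes left) and fitted with edgeR 4.0.16 in R 4.3.3 (TMM, 4 group means, quasi-likelihood test). A call means a Benjamini-Hochberg adjusted p under 0.05 over all genes tested. The analysis was tested on simulated data.

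Alternatives were DESeq2 1.42.0, limma-voom (limma 3.58.1), RLE size factors, no count filter, only the groups compared, a replicate block, omission of the 5 libraries richest in neuron markers, and omission of each library. Within-library ratios were compared by exact permutation tests. Member, related and marker lists were chosen with earlier results of these data known. Values per library are given for members called in any comparison and for the 3 smallest p-values in each. Related genes are named only where called. Transcript lengths and UTRs came from GENCODE M21 and sequences from RefSeq, both on GRCm38 and not on the build of the table. Levels per length use 1 transcript per gene.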

Additional observations from a re-analysis of the deposited data

Results flagged for a closer look

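Sparc was the member with a library far from the others of its group. In KO HI, library 3 had 2381 CPM, against 3326, 3364 and 3501 CPM in libraries 4, 2 and 1. The gap was 0.844 of the whole range, above Dixon's 95% critical value for 4 samples. This was 1 of 63 groups of 4 libraries looked at, over the 20 members given library by library and the summed level of all 39. Chance flags about 1 in 20 groups, which is 3.15 of 63. The same library had the second highest neuron marker sum, and the part of that in the Sparc value was not tested.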

How the results depend on the processing

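No value of the members called by edgeR, of the 3 members with the smallest p-values in each comparison or of the Nid1 to Nid2 ratio changed direction under the alternatives tried. For these same values, 123 calls were lost and 8 were gained over the alternatives. Calls that alternatives gained for other members are not in this count. In KO HI against WT HI, the call was lost in 9 of 22 alternatives for Fbln2, 8 for Nid1 and Fbln1 and 7 for Col18a1 and Efemp2. It was lost in 6 for Col4a1 and Agrn, 5 for Col4a2, Hspg2 and Fn1, 4 for Sparc and 2 for Tnc. The median near 0 in WT HI against WT sham changed sign: it was -0.04 without WT HI 4, -0.0035 with limma-voom and -0.25 with the replicate number as a block. In WT HI against WT sham, 11 members were called with only these groups fitted, where 9.11% of all genes were called higher and 8.03% lower. In KO HI against KO sham the count was 4 with DESeq2, 0 with only these groups fitted and 4 when the 5 libraries richest in neuron markers were omitted. In KO HI against WT HI it was 28 with DESeq2, where 11.5% of all genes were called lower. Leaving out 1 library at a time gave 0 to 1 members in WT HI against WT sham, 0 to 7 in KO HI against KO sham and 1 to 29 in KO HI against WT HI, where 0.56% to 6.07% of all genes in KO HI against KO sham and 1.58% to 12.5% in KO HI against WT HI were called lower. The cause was not tested.

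With the replicate number as a block, 0 members were called in WT HI against WT sham, 0 in KO HI against KO sham and 0 in KO HI against WT HI, where 27 had an unadjusted p under 0.05. The numbers do not show a pairing: correlations of same-numbered libraries ran from -0.78 to 0.79, and not every library correlated best with its own number. The depth of 15436376 counts or more left all 39 members testable. The biological coefficient of variation of 38.6% and 3 or 4 libraries a group limit the precision.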
